A study of Homo sapiens with 6 samples.

Results

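The replication-dependent histone genes supply the H1, H2A, H2B, H3 and H4 proteins that package newly copied DNA. They were taken by symbol, as H1-1 to H1-6 and every symbol made of H2AC, H2BC, H3C or H4C and a number, which gave 69 genes of 60835 distinct symbols. The 69 comprised 6 H1, 17 H2A, 18 H2B, 13 H3 and 15 H4 genes. Of these, 55 lay on chromosome 6, 13 on chromosome 1 and 1 on chromosome 12 (GRCh38). RNA was sequenced on day 3 from PANC-1, an established line of pancreatic epithelioid carcinoma, with SMAD4 knocked out in all libraries. The knockout cells had been transfected with SMAD4 carrying R272K, an arginine-to-lysine substitution (3 libraries), or with wild-type (WT) SMAD4 (3 libraries). Library titles give no clone of the knockout line, no promoter for the introduced SMAD4 and no separate cultures, and the p-values therefore reflect a spread that may be technical. SMAD4 is the co-SMAD that joins activated receptor SMADs downstream of TGF-β, and the series title concerns its arginine methylation by PRMT1.

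Replication-dependent histone genes are clustered, mostly lack introns, and are transcribed chiefly in S phase. Their mRNAs normally end in a conserved stem-loop in place of a poly(A) tail. The stem-loop-binding protein SLBP holds that stem-loop through processing, export, translation and decay, and the U7 snRNP directs the cut just after it. Some of these genes also give polyadenylated transcripts that run past the stem-loop, for instance in differentiated or tumour cells. The libraries here were made from RNA captured on oligo(dT), so the values describe the RNA that this capture retained and are no measure of total histone mRNA.

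The stem-loop was looked for on the transcript strand as the conserved 16-base histone 3′ stem-loop motif, in the 100 bases after the stop codon of GENCODE release 29 models. Of the 65 members found there, 29 had it, in 6 distinct forms, and 32 others had models that all end within 20 bases of the stop codon, so that no such window existed. The motif stood in 84 of 18758 protein-coding genes (0.448%), and 29 of those 84 were the members. One example of each form, with 5 bases on either side, is printed so that the forms can be compared, with the 16-base element in capitals:
H2AC6: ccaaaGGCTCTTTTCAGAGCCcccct
H4C8: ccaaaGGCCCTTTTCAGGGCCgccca
H2BC5: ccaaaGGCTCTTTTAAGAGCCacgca
H4C9: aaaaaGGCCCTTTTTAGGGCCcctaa
H3C6: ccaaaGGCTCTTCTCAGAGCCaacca
H2AC11: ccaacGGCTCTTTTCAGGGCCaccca
The form in H2AC6 was shared by 15 members, and that in H4C8 by 5, all of them H4 genes. The form in H2BC5 was found in 4 members (H2BC4, H2BC5, H2BC7 and H3C8), and that in H4C9 in 3. H3C6 and H2AC11 each had a form of their own. In GRCh38 the printed stretches, flanks included, lay at chr6:26124664-26124689 on the plus strand for H2AC6, chr6:26285126-26285151 on the minus strand for H4C8 and chr6:26158582-26158607 on the plus strand for H2BC5. All were exonic, after the stop codon.

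Promoter windows, from 250 bases before to 50 after the gene start, were available for 64 of the 69 members in RefSeq (GRCh38.p14). They were searched on both strands for TATAAA (the TATA box), CCAAT, the octamer ATTTGCAT, which POU2F1 binds, and AAACACA, known as the H1 box. The windows of the 4 members that were lower in R272K libraries, described below by class, are printed 5′ to 3′ on the gene's strand with these letters, or their reverse complement, in capitals:
H1-2: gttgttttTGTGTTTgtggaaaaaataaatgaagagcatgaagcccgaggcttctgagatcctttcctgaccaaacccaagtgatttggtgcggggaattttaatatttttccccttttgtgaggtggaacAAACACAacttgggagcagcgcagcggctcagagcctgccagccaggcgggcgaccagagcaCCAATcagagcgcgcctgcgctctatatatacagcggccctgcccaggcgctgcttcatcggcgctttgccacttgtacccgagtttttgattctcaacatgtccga
H2AC6: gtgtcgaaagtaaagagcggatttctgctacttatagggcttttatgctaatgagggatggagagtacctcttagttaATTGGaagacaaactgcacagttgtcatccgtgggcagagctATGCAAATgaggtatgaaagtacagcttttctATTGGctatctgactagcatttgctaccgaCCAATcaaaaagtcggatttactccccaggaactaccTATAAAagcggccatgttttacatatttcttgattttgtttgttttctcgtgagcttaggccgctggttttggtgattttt
H2BC5: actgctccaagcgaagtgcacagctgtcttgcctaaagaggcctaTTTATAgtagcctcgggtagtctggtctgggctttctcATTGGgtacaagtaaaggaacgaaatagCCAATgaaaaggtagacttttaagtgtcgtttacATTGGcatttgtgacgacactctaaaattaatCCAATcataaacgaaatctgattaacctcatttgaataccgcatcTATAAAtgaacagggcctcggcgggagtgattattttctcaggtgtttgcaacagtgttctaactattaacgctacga
H4C8: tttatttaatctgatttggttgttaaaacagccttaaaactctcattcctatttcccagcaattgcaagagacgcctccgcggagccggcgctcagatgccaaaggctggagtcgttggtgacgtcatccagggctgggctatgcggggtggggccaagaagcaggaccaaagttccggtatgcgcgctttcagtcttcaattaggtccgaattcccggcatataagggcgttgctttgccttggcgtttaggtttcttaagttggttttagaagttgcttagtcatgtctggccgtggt
These windows are chr6:26056421-26056720 (minus strand) for H1-2, chr6:26123922-26124221 (plus) for H2AC6, chr6:26157871-26158170 (plus) for H2BC5 and chr6:26285485-26285784 (minus) for H4C8, and no matches overlapped each other in them. CCAAT stood in 54 of 64 member windows (84.4%, against 34.6% of all 35116 windows), in every H1, H2A, H2B and H3 window but only 3 of 13 H4 windows. The octamer stood in 26 windows (40.6%, against 1.77% of all), of which 11 were H2A, 14 H2B and 1 H3. Head-to-head H2A and H2B genes, described below, share part of their windows, so a match between them can be counted for both genes. The H1 box stood in all 6 H1 windows and in 3 others (14.1% of members, against 5.64% of all), and TATAAA in 42 (65.6%, against 11.5%). TATAAA was found in every class, in 3 of 6 H1, 12 of 16 H2A, 12 of 18 H2B, 8 of 11 H3 and 7 of 13 H4 windows, and no difference between classes was tested. Among the 4 genes printed, CCAAT was present in 3, TATAAA in 2, the octamer in 1 and the H1 box in 1. Among the 22 tested members the numbers were 19, 15, 9 and 3 in that order. The H4C8 window held none of the searched letters, which says nothing about the factors that act there.

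Histone transcripts captured from R272K cells were lower than those from WT cells at 4 of the 22 members that could be tested. These were H1-2, a linker histone, H2AC6, H2BC5 and H4C8. No member was higher, and 18 did not pass the test, which was edgeR's quasi-likelihood test with Benjamini-Hochberg adjustment over 15911 genes (called at an adjusted p below 0.05). Among all tested genes 84 (0.528%) were called lower and 109 (0.685%) higher. By class, 1 of 3 tested H1 genes, 1 of 4 H2A, 1 of 9 H2B, 0 of 3 H3 and 1 of 3 H4 genes fell. At an unadjusted p below 0.05, 11 members were lower and 0 higher (1 of them an H3 gene), against 7.09% and 7.18% of all tested genes. DESeq2 and limma-voom also called 4 members lower and 0 higher. Of the 13443 genes that DESeq2 gave an adjusted p, 0.989% were called lower and 1.09% higher. H1-4 and H1-5 were among the genes given none. Without WT replicate 1, 7 of 24 tested members were called lower and 0 higher, against 2.42% of all genes lower and 5.36% in either direction. Leaving out R272K replicate 2 or 3 left H4C8 as the 1 member called, and leaving out R272K replicate 1 left 2, H2AC6 and H4C8. Calls over all genes fell in these fits too. Genes called lower were 33 of 16311 without R272K replicate 1, 38 of 16358 without replicate 2 and 34 of 16322 without replicate 3. With the trend of expression with gene length removed from each library, 5 of 22 were called lower, against 1.89% of all genes lower and 3.89% in either direction. The log2 fold change of R272K over WT was negative for 18 of 22 members, with a median of -0.45 and a range of -1.41 to 0.43. All tested genes had a median of -0.00, with 50.3% negative. In 12 members every R272K library lay below every WT library, which held for 10.4% of all tested genes, and in 0 members above, against 10.9%. H2BC26 and H4C5 had passed the filter on low counts through the WT libraries alone, where they were higher, and H4C16 through the R272K libraries alone. Over the 19 that passed in both groups, 4 were called lower, 10 were lower at an unadjusted p below 0.05, 10 were apart and lower, and 16 were negative, with a median of -0.45 and a range of -1.06 to 0.43. Bulk RNA cannot tell apart fewer cells holding these transcripts and less transcript per cell.

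**Figure D1:**
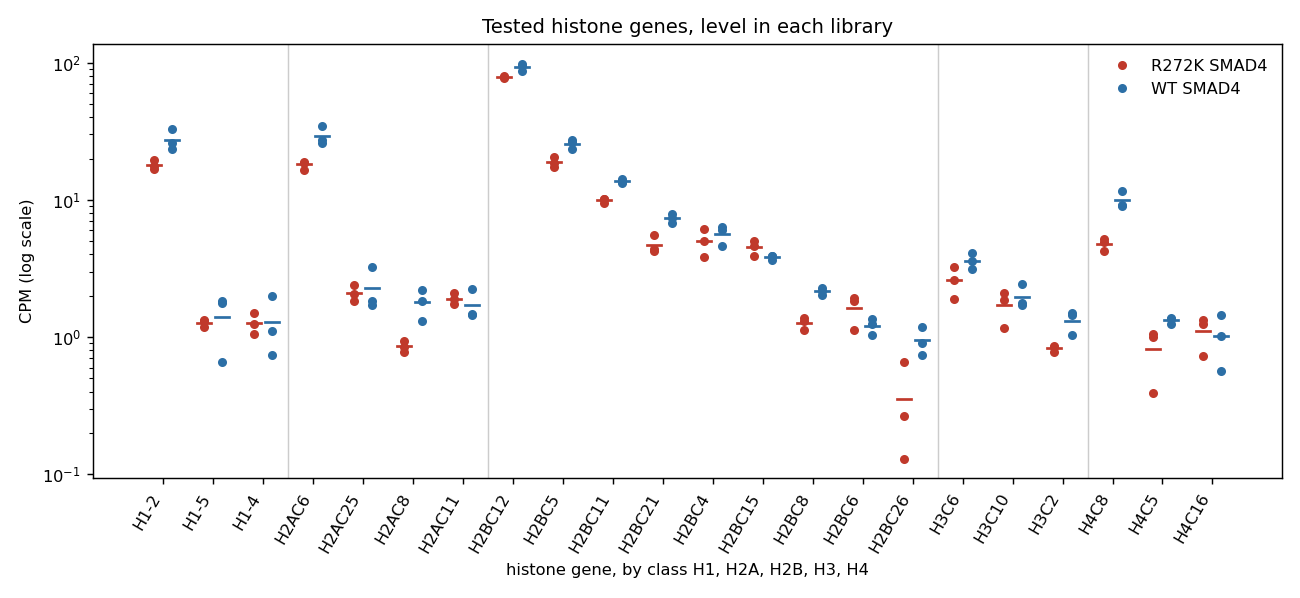
Level of each of the 22 tested histone genes, in CPM (read counts put on one library scale, log axis), in the 3 R272K libraries (red, left) and the 3 WT libraries (blue, right), with a bar at each group mean. Levels ran from under 1 CPM to the means of H2BC12, 78.8 CPM in R272K and 93.4 CPM in WT cells, and the points of the groups were apart in 12 genes, among them the called H1-2, H2AC6, H2BC5 and H4C8.

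Several facts of the libraries bear on these values. Total counts were 15148435 to 15406781 in R272K and 14776148 to 17706201 in WT libraries. WT replicate 1 stood apart on the first principal component (32.2% of variance), with a score of -31.3, against -9.56 to 15.6 for the other libraries. Its expression declined with gene length relative to the other WT libraries (rank correlation -0.41). For WT replicates 2 and 3, each set against the other WT libraries, the correlations were 0.23 and 0.32. The tested members are short: their median length, as recovered from the deposited tables, exceeded that of 6.34% of tested genes. The members' interquartile length (0.144 to 0.549 on a relative scale, median 0.228) held 3522 other genes, most of them longer than the median member. Among these genes the median log2 fold change was -0.07, or 0.00 without WT replicate 1, and 0.738% were called lower. Log2 fold changes and log2 ratios without that library are given beside the members' results. Counts on the SMAD4 gene, in which transcripts of the introduced and the knocked-out copy cannot be told apart, were unequal, at 43.3 ± 2.56 CPM in R272K and 88.7 ± 5.13 CPM in WT cells (SD, n = 3 each; log2 fold change -1.03, SE 0.0749, edgeR adjusted p = 6.28e-06), so that the substitution and the SMAD4 level cannot be told apart. PRMT1, the methyltransferase of the series title, stood at 175 ± 6.78 CPM in R272K and 175 ± 19.8 CPM in WT cells. All 13 epithelial and carcinoma markers were present, at 5430 to 5770 summed CPM in R272K and 4530 to 5460 CPM in WT libraries. Of the 12 of these that were tested, CDH1 was called higher, at 6.47 ± 0.313 CPM in R272K and 2.59 ± 0.49 CPM in WT cells (edgeR adjusted p = 0.00174), and 0 were called lower. At an unadjusted p below 0.05, 5 of the 12 were higher and 1 lower. DESeq2 called 3 higher, and edgeR called 4 higher with the gene-length trend removed and 5 without WT replicate 1. The 12 leukocyte, endothelial and fibroblast markers summed to 16.2 to 17.4 CPM in R272K and 10.4 to 13 CPM in WT libraries, and none was at 0 in every library. COL3A1 made up most of that sum, at 14.2 ± 0.806 CPM in R272K and 10.1 ± 1.33 CPM in WT cells. It did not pass edgeR's test over all libraries, but was called higher by DESeq2, with the gene-length trend removed and without WT replicate 1. The part of these markers in the histone results was not tested.

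Among H1 genes, which encode the linker histones that bind DNA between nucleosomes, H1-2 carried 87.9% of the counts. H1-2 (ENSG00000187837, chr6:26055740-26056470, minus strand) had 19.4, 17.6 and 16.9 CPM in the R272K libraries, against 33, 23.6 and 25.9 CPM in the WT libraries. Every R272K library was lower than every WT library, and WT replicate 1 was the highest of the 6. H1-2 fell, with a log2 fold change of -0.62 (SE 0.121, edgeR adjusted p = 0.025). Without WT replicate 1 it was -0.46, still called, and leaving out any 1 R272K library ended the call. H1-4 averaged 1.27 ± 0.218 CPM in R272K and 1.28 ± 0.643 CPM in WT cells, with a log2 fold change of -0.04 (SE 0.36; 0.45 without WT replicate 1), and H1-5 averaged 1.27 CPM in R272K and 1.41 CPM in WT cells (-0.16, SE 0.356; 0.08 without WT replicate 1). The groups overlapped in both, and both signs turned without that library. H1-1, H1-3 and H1-6 were too low to test.

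The H2A genes encode the partner of H2B in the dimers that flank the H3-H4 tetramer, and H2AC6 held 75.9% of their counts. H2AC6 (ENSG00000180573, chr6:26124145-26139116, plus strand) had 19, 16.6 and 18.5 CPM in the R272K libraries, against 34.4, 26.1 and 27.2 CPM in the WT libraries. The groups did not overlap. H2AC6 fell by 0.70 on the log2 scale (SE 0.113, edgeR adjusted p = 0.00744), and by 0.56 without WT replicate 1. Leaving out R272K replicate 2 or 3 ended the call. H2AC8 had 0.853, 0.932 and 0.782 CPM in R272K libraries, against 2.22, 1.83 and 1.31 CPM in WT libraries. Its groups were apart too, at a log2 fold change of -1.06 (SE 0.308, edgeR adjusted p = 0.132), or -0.87 without WT replicate 1, but the gene did not pass the test. H2AC11 averaged 1.91 CPM in R272K and 1.72 CPM in WT cells (log2 fold change 0.16, SE 0.265, or 0.06 without WT replicate 1), and H2AC25 averaged 2.1 CPM in R272K and 2.26 CPM in WT cells (-0.12, SE 0.279), turning to 0.25 without WT replicate 1. Both had overlapping groups.

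The H2B genes gave 65.1% of all member counts, and H2BC12 alone gave 39.6%. H2BC5 was the only one of the 9 tested that was called. H2BC5 (ENSG00000158373, chr6:26158122-26171349, plus strand) had 18.7, 20.5 and 17.4 CPM in the R272K libraries, against 27.4, 26.2 and 23.6 CPM in the WT libraries. No R272K library reached the lowest WT library, and the log2 fold change was -0.45 (SE 0.0963, edgeR adjusted p = 0.0396). It was -0.40 and still called without WT replicate 1, and leaving out any 1 R272K library or WT replicate 2 ended the call. The deposited H2BC5 span also overlaps AL353759.1 on the other strand and LARP1P1, and the use of strand in counting is not stated, so reads shared with them are uncertain.

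Further H2B genes had groups apart without passing the test over all libraries. H2BC12 (ENSG00000197903), the most abundant member, had 78.7, 80 and 77.7 CPM in R272K libraries, against 94.6, 98.2 and 87.5 CPM in WT libraries. All 3 R272K values lay within a narrow band below the WT values, at a log2 fold change of -0.24 (SE 0.0671, edgeR adjusted p = 0.112). H2BC11 (ENSG00000124635) had 9.52, 10.2 and 10.2 CPM in R272K libraries, against 14.3, 13.2 and 13.4 CPM in WT libraries, with a log2 fold change of -0.46 (SE 0.105, edgeR adjusted p = 0.0583). H2BC21 (ENSG00000184678, chr1:149884459-149886682, minus strand) had 4.27, 5.52 and 4.36 CPM in R272K libraries, against 7.87, 6.76 and 7.34 CPM in WT libraries. It was the one H2B gene of chromosome 1 above 4 CPM, and its log2 fold change was -0.64 (SE 0.152, edgeR adjusted p = 0.0639). Without WT replicate 1 all 3 were called lower, at log2 fold changes of -0.24 for H2BC12, -0.42 for H2BC11 and -0.58 for H2BC21. H2BC8 averaged 1.27 ± 0.127 CPM in R272K and 2.16 ± 0.127 CPM in WT cells (log2 fold change -0.76, SE 0.25, or -0.72 without WT replicate 1). H2BC26 had 10, 4 and 2 counts in R272K libraries, against 16, 11 and 18 counts in WT libraries, and its log2 fold change of -1.41 (SE 0.493) was the most negative of the 22. It was -1.44 without WT replicate 1. It did not pass the test, and it is one of the members that passed the filter through the WT libraries alone.

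Not every H2B gene was lower. H2BC15 had 3.87, 4.99 and 4.63 CPM in R272K libraries, against 3.93, 3.65 and 3.93 CPM in WT libraries (log2 fold change 0.23, SE 0.168, edgeR adjusted p = 0.58). H2BC6 averaged 1.62 CPM in R272K and 1.21 CPM in WT cells (0.43, SE 0.301), and H2BC4 averaged 5.01 CPM in R272K and 5.66 CPM in WT cells (-0.18, SE 0.191). The groups overlapped in these 3 genes. Their log2 fold changes without WT replicate 1 were 0.24 for H2BC15, 0.32 for H2BC6 and -0.08 for H2BC4.

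No H3 gene passed the test. H3C6 had 1.9, 2.6 and 3.26 CPM in R272K libraries, against 4.11, 3.58 and 3.14 CPM in WT libraries, and the groups overlapped at 1 library each (log2 fold change -0.49, SE 0.224). H3C2 averaged 0.833 CPM in R272K and 1.32 CPM in WT cells with no overlap (-0.65, SE 0.314, edgeR adjusted p = 0.373). H3C10 had 2.1, 1.86 and 1.17 CPM in R272K libraries, against 1.77, 2.43 and 1.7 CPM in WT libraries (-0.20, SE 0.284). The log2 fold changes without WT replicate 1 were -0.38 for H3C6, -0.81 for H3C2 and -0.27 for H3C10, none called.

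H4C8, an H4 gene, gave the lowest adjusted p among the members. It (ENSG00000158406, chr6:26277609-26285638, minus strand) had 65, 78 and 76 counts in the R272K libraries, against 204, 133 and 139 in the WT libraries, which is 4.27, 5.19 and 4.95 CPM against 11.6, 8.99 and 9.11 CPM. The highest R272K library was well under the lowest WT library. H4C8 fell by 1.05 on the log2 scale (SE 0.151, edgeR adjusted p = 0.0034), and by 0.91 without WT replicate 1. It was the one member called in each of the 6 fits that left out 1 library. H4C5 averaged 0.813 CPM in R272K and 1.33 CPM in WT cells (log2 fold change -0.70, SE 0.361), with groups apart, and H4C16, on chromosome 12, had 0.722, 1.33 and 1.24 CPM in R272K libraries, against 0.57, 1.01 and 1.44 CPM in WT libraries (0.14, SE 0.388). H4C5 was at -0.74 without WT replicate 1, and H4C16 turned to -0.16.

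**Figure D2:**
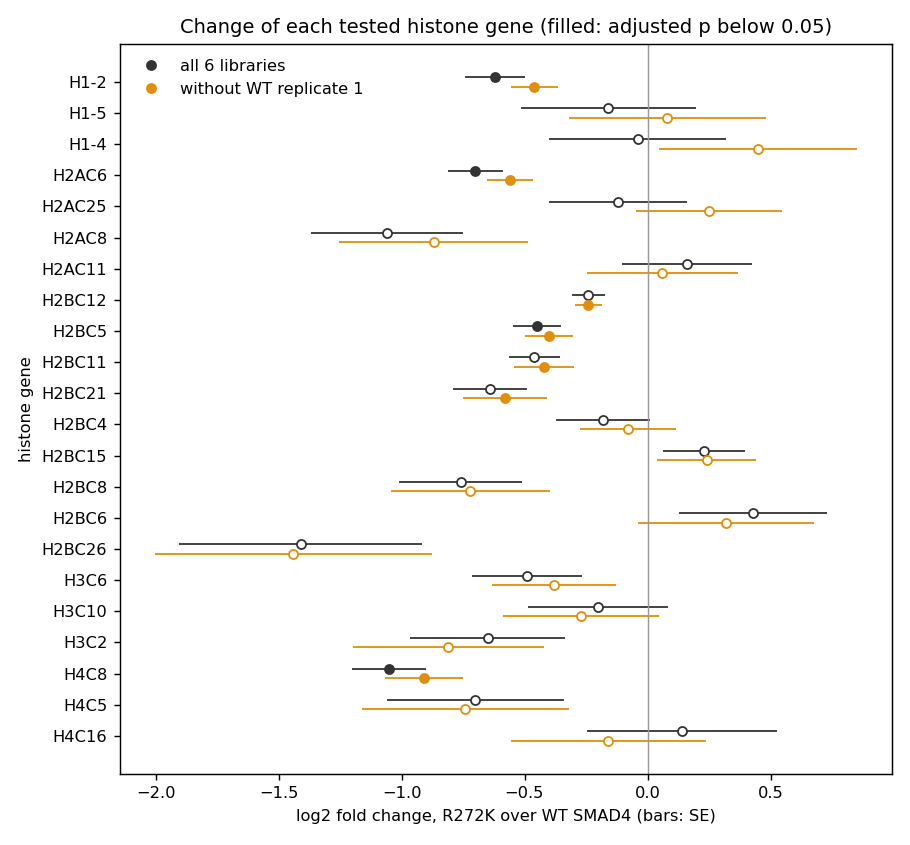
Log2 fold change of R272K over WT (horizontal axis, bars are SE) for each tested member, in all 6 libraries (black) and without WT replicate 1 (orange), with filled points at an adjusted p below 0.05. Filled black points are H1-2, H2AC6, H2BC5 and H4C8, and 7 orange points are filled.

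Per length, on the deposited TPM scale, H2BC12 was again the most abundant of the members named here, at a mean of 502 TPM in R272K and 586 TPM in WT cells. H1-2 followed at 77.5 TPM in R272K and 116 TPM in WT cells, and H2BC5 at 75.3 TPM in R272K and 101 TPM in WT cells. H2AC6 stood at 34.1 TPM in R272K and 54.2 TPM in WT cells. H4C8, which had the lowest log2 fold change of the 4 called genes, was at 6.99 TPM in R272K and 14.2 TPM in WT cells. These levels rest on the gene lengths that the authors divided by.

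Summed over all 69 members, without any filter, the level was 187, 192 and 183 CPM in the R272K libraries, against 267, 242 and 231 CPM in the WT libraries. The groups did not overlap, and the ratio of means was 0.759 (log2 -0.40, and -0.34 without WT replicate 1). The 5 classes were then summed separately, with no test on the sums. H4 genes summed to 7.68, 8.18 and 7.36 CPM in R272K libraries, against 16.4, 12.6 and 14.3 CPM in WT libraries, a ratio of 0.537 (log2 -0.90, and -0.79 without WT replicate 1). The H4 sum rested on H4C8, which held 66.6% of it. H2A genes summed to 25 ± 1.56 CPM in R272K and 37.4 ± 6.23 CPM in WT cells (log2 ratio -0.58, and -0.44 without WT replicate 1), and H1 genes to 21 ± 0.99 CPM in R272K and 30.7 ± 5.68 CPM in WT cells (-0.55, and -0.39 without it). H2B genes summed to 127 ± 5.41 CPM in R272K and 156 ± 7.71 CPM in WT cells (-0.30, and -0.28 without WT replicate 1), and H3 genes to 6.34 ± 0.26 CPM in R272K and 7.92 ± 0.835 CPM in WT cells (-0.32, and -0.31 without it). The H2B genes other than H2BC12 had a log2 ratio of -0.38, and -0.34 without WT replicate 1. Each class sum was lower in every R272K library than in every WT library, a separation that held for 10.4% of all single tested genes. The other sums also leaned on single genes. H1-2 held 87.9% of the H1 counts, H2AC6 75.9% of H2A, H2BC12 60.8% of H2B and H3C6 43.7% of H3. Whether the classes differed from each other was not tested.

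**Figure D3:**
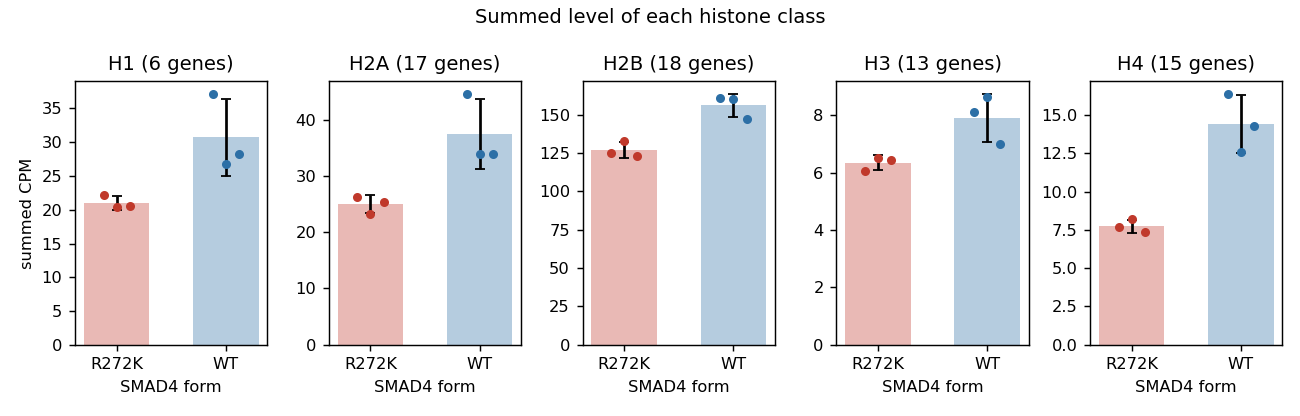
Summed CPM of all members of each histone class, filtered or not, per library (points), with the group mean (bars, from 0) and SD (error bars, n = 3), R272K left and WT right. All R272K points lie below all WT points in each class, and the H4 ratio of means is 0.537. A single gene held most of the counts in each of H1, H2A, H2B and H4.

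The 47 members that were not tested added little. Of these, 43 had at least 1 count and none more than 57 in all libraries together, and 4 (H1-1, H2BC1, H4C6 and H4C7) had 0 counts throughout, which allows up to 3 counts per library, or 0.171 to 0.203 CPM. This limit covers counting error only. The 47 summed to 115, 100 and 92 counts in R272K libraries, against 168, 106 and 123 counts in WT libraries. In CPM that was 7.55, 6.65 and 5.99 in R272K libraries, against 9.58, 7.17 and 8.06 in WT libraries, and the groups overlapped (log2 ratio of means -0.30, and -0.18 without WT replicate 1). H4C15 had 0, 1 and 0 counts in R272K libraries, against 18, 0 and 4 counts in WT libraries, so a single library held most of them. H4C14 and H4C15, H3C14 and H3C15, and H2AC18 and H2AC19 are near-identical copies whose reads the counting could split, and their values are uncertain. The 18 tested members that were not called summed to 118, 125 and 119 CPM in R272K libraries, against 151, 150 and 137 CPM in WT libraries (log2 ratio -0.27, and -0.25 without WT replicate 1). This sum rested on H2BC12, which held 64.5% of its counts and had a log2 fold change of -0.24, and 4 of the 18 had positive fold changes.

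The deposited gene span, a genomic interval that includes any introns, was set against the stem-loop in the 29 members where that element was located; H1-2 and H2BC12 are not among them. Of 15 members whose span ran at least 100 bases beyond it, 12 were tested. Of 14 whose span ended within 20 bases after it, 4 were tested (H2AC8, H2AC11, H2BC8 and H4C5). The span ran 14432 bases past the stem-loop of H2AC6, 12747 past that of H2BC5, 7522 past that of H4C8 and 5 past that of H2AC8. Over all members, those with a span of at least 1000 bases (18, of which 13 were tested) had a log2 ratio of summed CPM of -0.50, and the 51 shorter ones, of which 9 were tested, -0.32. The sum of the shorter ones rested on H2BC12, which held 68.8% of its counts and had a log2 fold change of -0.24. Whether the sums differed by span was not tested. Among tested members 3 of 13 with the longer span and 1 of 9 with the shorter one were called lower, with median log2 fold changes of -0.45 for the longer and -0.62 for the shorter. Without WT replicate 1 the log2 ratios of the sums were -0.42 for the longer and -0.28 for the shorter. The counts do not separate reads that end at the stem-loop from reads beyond it.

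H2A and H2B genes often lie head to head, sharing a short promoter region. Of 13 head-to-head pairs of members with under 500 bases between them, 4 had both genes tested. The 13 include H3C12 with H2BC17, and every other pair joined an H2A and an H2B gene. H2AC6 and H2BC4, 218 bases apart, had log2 fold changes of -0.70 and -0.18. Their log2 ratio within a library averaged 1.87 ± 0.411 in R272K and 2.36 ± 0.23 in WT cells (SD, n = 3 each), a difference of -0.50. H2AC11 and H2BC11, 247 bases apart, had fold changes of 0.16 and -0.46, and their log2 ratio averaged -2.37 ± 0.142 in R272K and -3.00 ± 0.386 in WT cells, a difference of 0.63. H2AC8 and H2BC8, 232 bases apart, were both negative at -1.06 and -0.76, and their log2 ratio averaged -0.55 ± 0.244 in R272K and -0.30 ± 0.36 in WT cells, a difference of -0.25. H2BC26 and H2AC25, 229 bases apart on chromosome 1, had -1.41 and -0.12, and their log2 ratio averaged -2.72 ± 1.24 in R272K and -1.19 ± 0.644 in WT cells, a difference of -1.53. A two-sided exact permutation test of 3 against 3 libraries cannot give a p under 0.1, so it could not decide any of these differences, and no other test of them was made.

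The replication-independent histone variants, which are not coupled to DNA replication in the way of the members, were set beside them. They are not uniform: CENPA is also among the G2 and M phase markers, and H2AX is known to give both a stem-loop-ended and a polyadenylated mRNA. None of the 12 tested was called by edgeR, DESeq2 or limma-voom, none had an unadjusted p below 0.05, and their log2 fold changes ran from -0.23 to 0.14 with a median of 0.01. H1-10, a linker histone variant, had 28, 28.5 and 27.2 CPM in R272K libraries, against 37, 35.5 and 25.9 CPM in WT libraries, with overlap (log2 fold change -0.23, SE 0.116). H1-10 was called lower by edgeR when WT replicate 3 was left out. H3-3B was called higher when WT replicate 1 was left out and the gene-length trend was also removed. CENPA, the centromeric H3 variant, averaged 21.7 ± 1.58 CPM in R272K and 19.8 ± 0.998 CPM in WT cells, and H2AZ2 averaged 154 ± 1.13 CPM in R272K and 146 ± 3.76 CPM in WT cells. The member median of -0.45 lay below the range of this list, with no test of that difference made.

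Of the genes that make and process histone mRNA, none of 32 tested was called by edgeR or limma-voom and 1 was called lower by DESeq2. At an unadjusted p below 0.05, 5 were lower and 0 higher, and the median log2 fold change was -0.05. SLBP had 77.5, 80.6 and 84.4 CPM in R272K libraries, against 84, 75.1 and 75.1 CPM in WT libraries (log2 fold change 0.05, SE 0.0711, edgeR adjusted p = 0.801). NPAT, the histone-locus coactivator phosphorylated by cyclin E-CDK2, averaged 52 ± 1.65 CPM in R272K and 47.8 ± 6.64 CPM in WT cells, and CASP8AP2, another histone-locus-body protein, averaged 63.8 ± 3.04 CPM in R272K and 58.5 ± 8.31 CPM in WT cells. The groups overlapped in these 3 genes. NELFA, a subunit of the negative elongation factor, had 24.7, 27.3 and 25.7 CPM in R272K libraries, against 34.6, 30.9 and 34.3 CPM in WT libraries. Its groups were apart (log2 fold change -0.36, SE 0.0829, edgeR adjusted p = 0.0554), and it was the gene that DESeq2 called. NELFA was also called lower with the gene-length trend removed and, with CPSF2, when WT replicate 1 was left out. LSM10 and LSM11, the Sm-like proteins of the U7 snRNP, had log2 fold changes of -0.21 (SE 0.0788) and -0.32 (SE 0.121), and CCNE1, the cyclin E1 gene, -0.25 (SE 0.107), none past the test.

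Among 21 genes of histone mRNA decay and translation, none was called by edgeR, DESeq2 or limma-voom, 2 were lower and 0 higher at an unadjusted p below 0.05, and the median was -0.07. DCP1A, a decapping cofactor, averaged 44.9 ± 2.4 CPM in R272K and 53.6 ± 0.796 CPM in WT cells (log2 fold change -0.26, SE 0.0713, edgeR adjusted p = 0.115). UPF2, a nonsense-mediated decay factor, averaged 68.8 ± 1.64 CPM in R272K and 80.8 ± 5.83 CPM in WT cells (-0.23, SE 0.0712, edgeR adjusted p = 0.15). DCP1A was called lower without WT replicate 1, and DCP1A and UPF2 with the gene-length trend removed. LSM7 and LSM6 of the Lsm ring each had -0.22, with overlapping groups. Of 30 histone chaperone and import genes, 0 were called by the same tools, 1 was higher and 0 lower at an unadjusted p below 0.05, and the median was 0.03. ASF1B, which hands H3-H4 to the assembly factors, averaged 29.7 ± 1.56 CPM in R272K and 25.6 ± 2 CPM in WT cells (0.21, SE 0.0872). HJURP, the CENPA chaperone, had a log2 fold change of 0.12, CABIN1 0.15 and ASF1A -0.18, none past the test. ASF1B and NASP, which carries H3-H4 and is also an S-phase marker, were called higher without WT replicate 1, and ASF1B alone with the length trend removed.

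Cell-cycle markers were counted in the same way. Of 43 tested S-phase markers, 0 were called by edgeR, DESeq2 or limma-voom, 1 was lower and 1 higher at an unadjusted p below 0.05, and 20 were negative and 23 positive, with a median of 0.01. Those with the smallest p were BLM at 0.17, MRPL36 at -0.23, TIPIN at -0.17 and RFC2 at -0.17 on the log2 scale. NASP was called higher without WT replicate 1. Of 53 G2 and M phase markers, 49 were positive, with a median of 0.15, and 25 were higher and 0 lower at an unadjusted p below 0.05. CENPF, a kinetochore protein, was the 1 called, at 486 ± 10.4 CPM in R272K and 374 ± 46.5 CPM in WT cells (log2 fold change 0.38, SE 0.081, edgeR adjusted p = 0.0381), a call that ended without any 1 of the R272K libraries. CENPE, ANLN and BUB1 had 0.27, 0.25 and 0.25 and did not pass edgeR's test, while DESeq2 called CENPE as well as CENPF. With the gene-length trend removed, 15 of 53 were called higher, CENPE, ANLN and BUB1 among them, against 2.00% of all tested genes. Without WT replicate 1, 23 of 54 G2 and M markers were called higher, against 2.94% of all tested genes. The part of cell-cycle composition in the histone values was not tested.

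As a description only, 29 other transcripts that normally lack a poly(A) tail were looked at. Many are very short or have near-identical copies, and how shared reads were counted is not stated. A 0 can therefore reflect the counting, and the list is no measure of how much such RNA was retained. Of the 29, 15 were at 0 in every library and 6 were tested. None of the 6 was called by edgeR, DESeq2 or limma-voom or had an unadjusted p below 0.05, and their median was -0.00. Their levels varied widely within each group. RN7SL1, the signal recognition particle RNA, had 252, 92.1 and 64.8 CPM in R272K libraries, against 122, 70 and 241 CPM in WT libraries. MALAT1, whose mature end is a triple helix, averaged 31 ± 7.07 CPM in R272K and 35.9 ± 11.6 CPM in WT cells (log2 fold change -0.22, SE 0.242). SNORA73B and RNU6-1 had 0.19 and 0.12, not past the test.

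**Figure D4:**
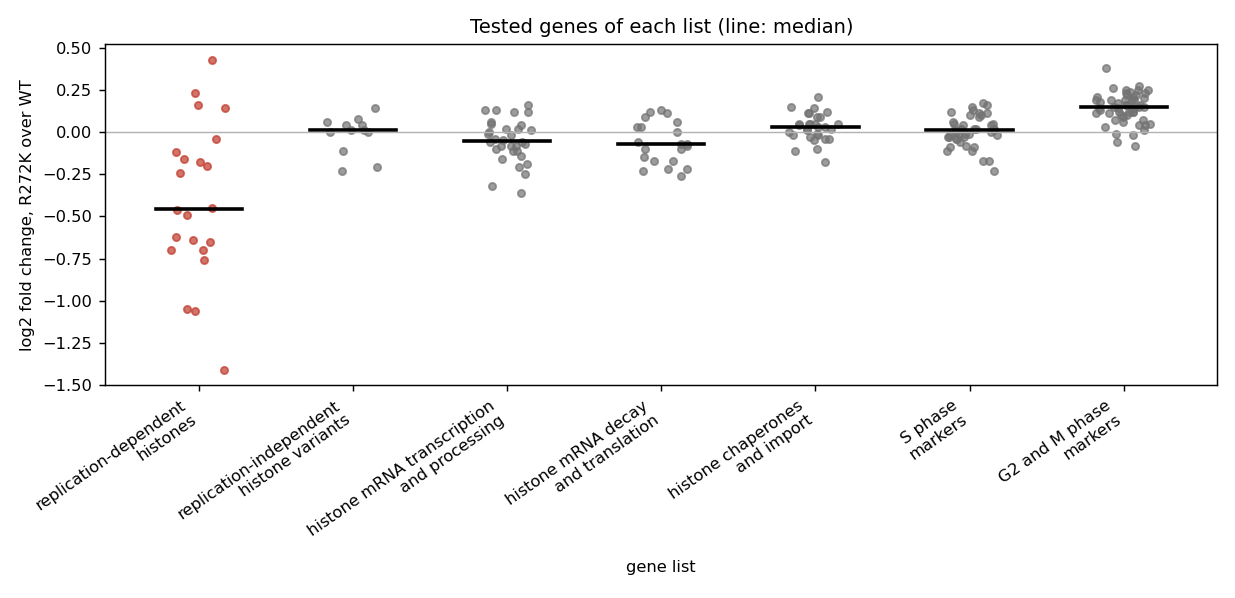
Log2 fold change of R272K over WT for each tested gene of the members (red) and of 6 related gene lists (grey), with a line at each median. The members' median is -0.45, those of the replication-independent variants and S-phase markers are 0.01, and that of the G2 and M phase markers is 0.15.

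The tested genes whose level followed the summed histone level most closely over the 6 libraries were PHAX, ZNF777 and SLC3A2 (Pearson r of log2 CPM 0.995 each), TMEM97 (0.994) and MPP1 (0.993). PHAX is an adaptor for nuclear export of small nuclear RNAs, and SLC3A2 the heavy chain of amino acid transporters. These correlations are over 6 libraries that share the same group difference and are descriptions only. SLC3A2 and ZNF777 were themselves called lower, at log2 fold changes of -0.51 and -0.49 (edgeR adjusted p = 0.00174 and 0.0359), and PHAX, TMEM97 and MPP1, at -0.25, -0.14 and -0.19, were not.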

How the data were processed

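Polyadenylated RNA from 3 R272K and 3 WT libraries was sequenced. The submitters' processing notes list HTSeq 0.10.0, HISAT2 2.1.0, SAMtools and fastp 0.23.0, and the build GRCh38. Their settings are not stated. The authors deposited read counts per gene and, separately, TPM, a length-scaled signal. Both tables held 62710 lines for 60835 symbols, since 453 symbols were repeated; each was used once. The deposited TPM signal summed to 1296446 to 1472074 with repeats and to 1000000 without.

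Genes were kept by edgeR's filter (minimum count 10, minimum total 15), scaled by TMM and tested two-sided with the robust quasi-likelihood test (edgeR 4.0.16, R 4.3.3), adjusting by Benjamini-Hochberg over 15911 genes. Each fold change is R272K over WT on a log2 scale; CPM uses TMM-scaled library totals. Class sums take every member. The edgeR test was tested on simulated data. Alternatives used limma 3.58.1, DESeq2 1.42.0, other scalings and filters, a replicate block, a gene-length offset (lowess span 0.3) and omission of each library. Omission of WT replicate 1 together with the length offset was added after seeing the data. Replicate libraries differed by more than sampling noise, with a chi-square of at least 1.83 per degree of freedom.

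The members and lists were chosen with earlier results of these data known. Genes named were every tested member, SMAD4, PRMT1, SLBP, NPAT, CASP8AP2, up to 4 of each list by smallest p, the most abundant marker of other cell types and the 5 genes most correlated with the summed histone level. A gene that this rule takes is not reported here. CPSF2, NASP, H3-3B and examples of untested members were chosen after their values were seen. Stem-loops are from GENCODE release 29 and promoters from RefSeq. Python 3.11.15, numpy 2.4.6, pandas 2.3.3, scipy 1.17.1 and matplotlib 3.10.9 were used.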

Additional observations from a re-analysis of the deposited data

How the results depend on the processing

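Other scalings, a filter of 1 CPM, DESeq2 and limma-voom gave 4 or 5 members lower and 0 higher. Without the filter 474 of 36623 genes were called, 247 of them lower, and 7 of 65 members, all lower. The 7 included H4C15, which had 18 of its 23 counts in WT replicate 1. On log2(TPM + 1) limma gave 104 genes and 7 members, with 101 and 7 on log2(TPM + 0.1) and 37 and 0 on log2(TPM + 1) without a filter. The cause was not tested. Removing the gene-length trend gave 619 genes and 5 members, and 652 genes with the replicate block added. Leaving out 1 library gave 55 to 875 genes and 1 to 7 members, with the highest numbers without WT replicate 1; without it and with the length trend removed, 934 genes and 7 members were called. Same-numbered libraries did not deviate together (correlations -0.06, -0.01 and -0.01), so the numbers were not taken as pairs; a replicate block gave 262 genes and 4 members lower. Low members changed sign. H1-4 moved to 0.05 by limma-voom, 0.08, 0.11 and 0.08 on the 3 TPM scales, 0.01 with the replicate block, 0.05 with the length trend removed, 0.09 with both, 0.45 without WT replicate 1 and the trend, and -0.31 to 0.45 over omitted libraries. H1-5 moved to 0.00 on log2(TPM + 0.1), to 0.09 without WT replicate 1 and the trend, and -0.5 to 0.08 over omitted libraries; H2AC25 to 0.25, and -0.29 to 0.25; H3C10 -0.37 to 0.02; H4C16 to -0.17, and -0.16 to 0.49. The summed log2 ratio over all members ran from -0.44 to -0.34 when 1 library was left out. Low counts limit the precision of members near 1 CPM, such as H1-4 with an SE of 0.36.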
